A study of Mus musculus with 8 samples.

Results

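The Hox genes encode homeodomain transcription factors that lie in 4 chromosomal clusters, A to D, and 39 of the 31890 genes on the array were such genes. They were taken as every gene whose name on the array is Hoxa, Hoxb, Hoxc or Hoxd with a paralogue number, and each was represented by its brightest probe. The genes of a cluster are switched on along the body axis in the order of their paralogue numbers, low numbers toward the head and high numbers toward the tail. Their proteins bind DNA together with cofactors of the TALE class, the Meis, Pbx and Pknox proteins. In blood, Hoxa9 and its cofactor Meis1 are known for promoting the growth of stem and progenitor cells, and Hoxb4 for expanding hematopoietic stem cells when it is overexpressed.

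RNA came from E10.5 mouse embryos, from the aorta-gonad-mesonephros region with the umbilical and vitelline arteries, where the first hematopoietic stem cells form in clusters on the vessel wall. The embryos carried a GFP transgene under Ly6a regulatory sequence (Tg(Ly6a-GFP)), Ly6a being the gene that encodes Sca-1, and had transgenic fathers and C57BL/6 x 129S1/SVImJ F1 mothers. Cells that were CD31+ VEC+ ESAM+ were sorted into GFP+ hematopoietic cluster cells (Kit+, 30000 cells), GFP- hematopoietic cluster cells (Kit+, 130000 cells), GFP+ endothelial cells (Kit-, 70000 cells) and GFP- endothelial cells (Kit-, 300000 cells), each from a pool of 100 embryos. The RNA of each group was divided into 2 fractions that were amplified and hybridised separately, so p-values measure only the spread between such fractions and not that between embryos or sorts.

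Values are log2 levels relative to the array's 75th percentile, and a difference of 1 is a 2-fold change. Levels are not set against each other between genes, since each probe has its own brightness. The number of arrays, 2 per group, limits the precision, and the SD of the 31 tested Hox genes within a group had a median of 0.045 to 0.062. The 75th percentile ran from 708 to 1477 intensity units, and 55.4% to 64.5% of spots were well above background. The sorting markers followed the labels among the cells compared: Kit was higher in cluster cells than in endothelial cells by 1.55 ± 0.050 among GFP+ cells and by 0.64 ± 0.050 among GFP- cells. All 7 markers of hematopoietic cluster and blood cells and all 8 of endothelium were well above background in every group.

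Of the 39 Hox genes, 24 were well above background on all 8 arrays. Another 7 were so on both arrays of at least 1 group, which makes 31 that were tested, and for Hoxa13, Hoxc11 and Hoxd11 this held in 1 group alone, so that a difference involving that group is partly built in. Hoxb1, Hoxb13, Hoxc13 and Hoxd1 were not well above background on any array. Hoxc8, Hoxc12 and Hoxd12 were above background on 1 array each and Hoxd13 on 3, and these 8 genes were not tested. By cluster, 11 of 11 genes of cluster A, 8 of 10 of B, 6 of 9 of C and 6 of 9 of D were tested. A lower signal can come from fewer cells with the transcript or from less RNA per cell, and bulk arrays cannot tell these apart.

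**Figure D1:**
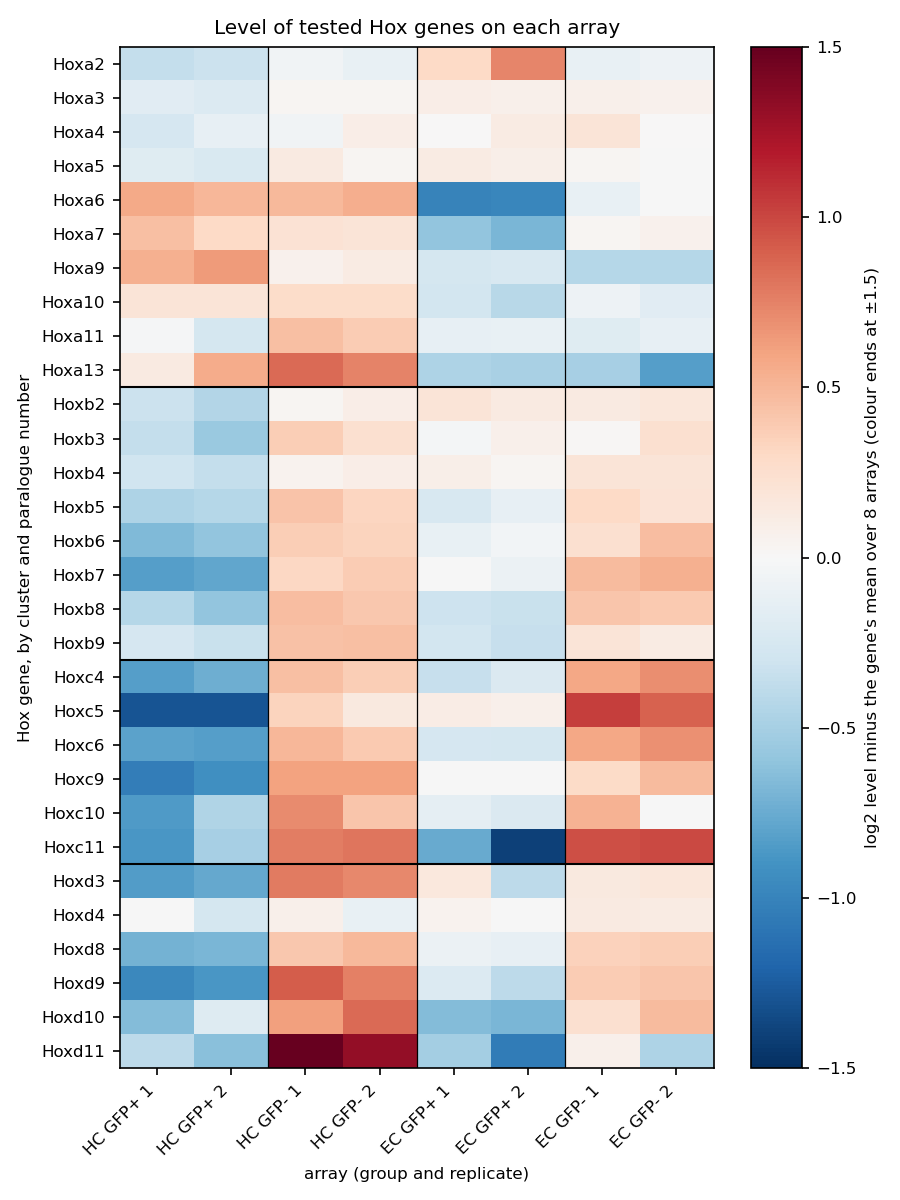
Level of 30 of the 31 tested Hox genes on each of the 8 arrays (columns, 2 per group), as the log2 level minus the gene's mean over the arrays. Rows follow cluster and paralogue number, with lines between clusters A, B, C and D. Genes of clusters B, C and D are mostly blue in GFP+ cluster cells (HC GFP+), while Hoxa6, Hoxa7 and Hoxa9 are red there.

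In hematopoietic cluster cells, GFP+ against GFP-, nearly every tested gene of clusters B, C and D was lower, while cluster A was mixed and Hoxa9 was higher. Of the 31 tested Hox genes, 22 were lower, 1 was higher and 8 did not pass (limma, Benjamini-Hochberg adjusted p under 0.05). Over all 19538 tested genes, 32.7% passed, 20.9% lower and 11.8% higher. The 2 GFP+ arrays lay below both GFP- arrays for 27 of the 31 Hox genes and above them for 2, and over all tested genes these shares were 43.5% and 23.7%. The median log2 fold change was -0.76 over the tested Hox genes and -0.08 over all genes. Among the 24 genes above background on all 8 arrays, 16 were lower and 1 was higher, with a median of -0.50.

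Hoxa9 was the single Hox gene that rose in GFP+ cluster cells. The probe used lies at chr6:52174165-52174224 (mm9, coordinates of the array files). It read -1.21 and -1.10 in GFP+ cluster cells, against -1.68 and -1.62 in GFP- cluster cells. Both GFP+ arrays lay above both GFP- arrays, by 0.49 ± 0.054 (adjusted p = 0.00166). The other Hoxa9 probe on the array, at chr6:52175595-52175654 (mm9), gave a difference of 0.74 in the same direction. The call held whichever 1 of the 8 arrays was left out, with adjusted p from 0.00537 to 0.0154.

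Hoxb4 fell in the same comparison. Its probe, at chr11:96182885-96182944 (mm9), read 1.35 and 1.30 in GFP+ cluster cells, against 1.70 and 1.75 in GFP- cluster cells. The groups did not overlap, and the difference was -0.40 ± 0.048 (adjusted p = 0.00224).

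The 5 largest changes among genes measured in both groups were all falls, in clusters B, C and D. Hoxd9, a posterior gene with roles in trunk and limb patterning, read -3.78 and -3.69 in GFP+ cluster cells, against -1.90 and -2.05 in GFP- cluster cells. The difference of -1.76 ± 0.088 (adjusted p = 0.000114) was far larger than the spread between arrays. Hoxc9, which patterns the thoracic region, read -2.28 and -2.17 in GFP+ cluster cells, against -0.64 and -0.65 in GFP- cluster cells. It fell by 1.58 ± 0.076 on the log2 scale (adjusted p = 9.95e-05).

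Hoxc6 and Hoxc4, from the same cluster, behaved alike. Hoxc6 read -1.50 and -1.52 in GFP+ cluster cells, against -0.20 and -0.30 in GFP- cluster cells, a difference of -1.26 ± 0.060. Hoxc4 read -2.24 and -2.15 in GFP+ cluster cells, against -0.97 and -1.05 in GFP- cluster cells, a difference of -1.19 ± 0.075. Neither gene had overlapping groups. Hoxb7 read 0.18 and 0.22 in GFP+ cluster cells, against 1.31 and 1.38 in GFP- cluster cells, a difference of -1.15 ± 0.053. Its 2 GFP+ arrays lay below all 6 other arrays.

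Hoxa9 and Hoxd9 are paralogues, descended from the same ancestral gene, and they moved in opposite directions here. Their promoters, the 250 bases before the annotated start, are shown because the RNAs of this pair parted between the same samples (RefSeq, GRCm38.p6, 5′ to 3′ on the gene's strand). The Hoxa9 window also lies within the span of Gm52902. Neither window held a match, on either strand, to the 4 motifs searched: TGACAG (bound by MEIS proteins), TGATTNAT (PBX with HOX), TTTATNG (CDX and posterior HOX) and TGTGGT (RUNX).
Hoxa9 promoter, chr6:52227371-52227620, minus strand: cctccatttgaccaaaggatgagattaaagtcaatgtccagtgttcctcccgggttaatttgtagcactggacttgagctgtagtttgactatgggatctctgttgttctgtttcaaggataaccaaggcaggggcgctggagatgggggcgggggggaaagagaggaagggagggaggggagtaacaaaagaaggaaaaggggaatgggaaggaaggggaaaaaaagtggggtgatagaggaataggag
Hoxd9 promoter, chr2:74697513-74697762, plus strand: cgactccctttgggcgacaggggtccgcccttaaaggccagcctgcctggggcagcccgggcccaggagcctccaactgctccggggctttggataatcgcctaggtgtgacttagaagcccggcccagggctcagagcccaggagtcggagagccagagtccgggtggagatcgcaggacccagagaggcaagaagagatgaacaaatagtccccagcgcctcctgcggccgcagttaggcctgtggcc

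By cluster, the 8 tested genes of cluster B all fell in GFP+ cluster cells, from -0.40 (Hoxb4) to -1.15 (Hoxb7), with a median of -0.79. The 6 tested genes of cluster C all fell, with a median of -1.37. In cluster D, 5 of 6 fell, with a median of -1.35, and the exception was Hoxd4 at -0.12 ± 0.105. Of all tested genes, 20.9% fell. The cluster D values include Hoxd11, which passed the filter through GFP- cluster cells alone. Those of cluster C include Hoxc11, well above background on 1 GFP- cluster array and on no GFP+ cluster array. The Hoxc11 call was lost with another background correction, normexp without 2 spots far below their background (-0.44, adjusted p = 0.0694). Cluster A stood apart, with a median of -0.21. There Hoxa3 (-0.22), Hoxa5 (-0.28), which has roles in lung development, and Hoxa11 (-0.56), which has roles in kidney and forelimb development, fell. Hoxa2, Hoxa4, Hoxa6, Hoxa7, Hoxa10 and Hoxa13 did not pass, with differences from -0.45 (Hoxa13) to 0.17 (Hoxa7). The Hoxa3 call was lost without the second GFP+ cluster array (adjusted p = 0.0576) or without either GFP- cluster array (0.0656 and 0.066). The Hoxa5 call was lost without the second GFP+ (0.0553) or the first GFP- cluster array (0.0619), and that of Hoxc10 in 1 of the 8 fits that left out an array (0.0581).

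Hoxd11, Hoxc5 and Hoxd3 had only a bound in GFP+ cluster cells, where neither array was well above background. Hoxd11 was at least 2.71-fold lower there than in GFP- cluster cells, Hoxc5 at least 2.25-fold lower and Hoxd3 at least 1.87-fold lower. Such a bound sets the mean of the brighter group against the lowest signal that counts as above background. For Hoxd11 it is partly built in, as GFP- cluster cells are the 1 group through which Hoxd11 passed the filter. The second Hoxd11 probe, above background on 1 array, gave -0.15 in this comparison. Hoxc11 was not well above background in GFP+ cluster cells and gave no bound above 1. By paralogue number, the median change was -0.33 over the 10 tested anterior genes (numbers 1 to 4), -0.96 over 10 central genes (5 to 8) and -1.15 over 11 posterior genes (9 to 13). The last of these includes Hoxa13, Hoxc11 and Hoxd11. Over the genes above background on all 8 arrays the median was -0.26 for 9 anterior, -0.94 for 9 central and -0.65 for 6 posterior genes, so the order of central and posterior genes turned.

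In endothelial cells, GFP+ against GFP-, the changes were smaller and fewer. Of the 31 tested Hox genes, 16 were lower, 3 were higher and 12 did not pass. Of all tested genes 51.5% passed, 33.3% lower and 18.1% higher, and the median log2 fold change of all genes was -0.13. The Hox median was -0.43, or -0.30 relative to all genes. The 2 GFP+ arrays lay below both GFP- arrays for 20 of the 31 Hox genes and above them for 6, beside 52.1% and 28.6% of all tested genes. Quantile normalization moved the all-gene median to -0.04 and left 16 Hox genes lower and 2 higher.

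**Figure D2:**
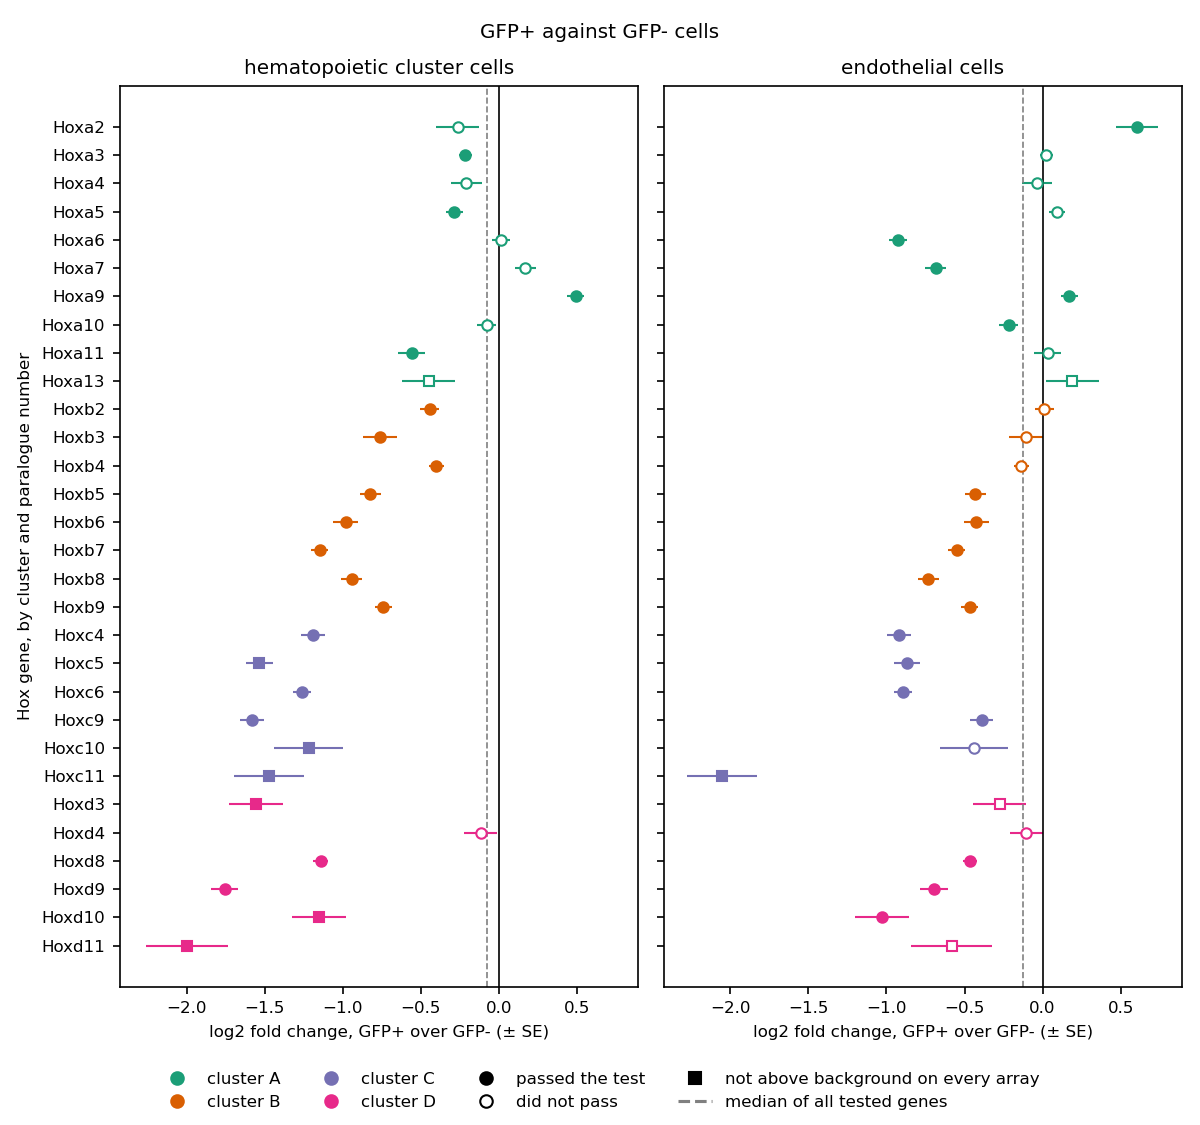
Log2 fold change of 30 of the 31 tested Hox genes, GFP+ over GFP-, with its standard error (horizontal axis), in hematopoietic cluster cells (left) and endothelial cells (right). Filled points passed the test, open points did not, squares were not above background on every array of the pair, colours mark the clusters and the dashed line is the median of all tested genes. In cluster cells 22 genes lie below 0 as filled points and Hoxa9 alone above; in endothelial cells the filled points above 0 are Hoxa2 and Hoxa9.

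The largest fall in endothelial cells among genes measured in both groups was that of Hoxd10, which has roles in motor neuron and hindlimb patterning. It read -4.53 and -4.57 in GFP+ endothelial cells, against -3.64 and -3.41 in GFP- endothelial cells (-1.03 ± 0.173, adjusted p = 0.0053). Hoxa6 read -4.65 and -4.63 in GFP+ endothelial cells, against -3.77 and -3.66 in GFP- endothelial cells (-0.93 ± 0.058, adjusted p = 0.000289). For both genes the groups were well apart, but Hoxd10 was dim, and its call was lost with another background correction, normexp without 2 spots far below their background (-0.44, adjusted p = 0.0771).

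Cluster C fell next, in its anterior and central genes. Hoxc4 read -1.76 and -1.63 in GFP+ endothelial cells, against -0.84 and -0.72 in GFP- endothelial cells, a difference of -0.92 ± 0.075. Hoxc6 read -0.95 and -0.96 in GFP+ endothelial cells, against -0.12 and 0.00 in GFP- endothelial cells, a difference of -0.89 ± 0.060. Hoxc5 read -3.65 and -3.69 in GFP+ endothelial cells, against -2.73 and -2.88 in GFP- endothelial cells, a difference of -0.87 ± 0.084. All 3 genes had separate groups and adjusted p of 0.000906 or less.

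Hoxa2, which patterns the hindbrain, rose in GFP+ endothelial cells. It read -1.38 and -0.95 in GFP+ endothelial cells, against -1.79 and -1.75 in GFP- endothelial cells, a difference of 0.61 ± 0.136 (adjusted p = 0.0141). The groups did not overlap, but its GFP+ arrays disagreed more than those of most Hox genes. Without the first or the second GFP- endothelial array the Hoxa2 call was lost (adjusted p = 0.0657 and 0.0582).

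Hoxa9 was also higher in GFP+ endothelial cells, by a smaller amount. It read -2.01 and -1.98 there, against -2.17 and -2.16 in GFP- endothelial cells, a difference of 0.17 ± 0.054 (adjusted p = 0.0422). The call held when either GFP+ cluster array was left out and was lost when any 1 of the 6 other arrays was left out (highest adjusted p = 0.148). It was also lost with quantile normalization (0.14, adjusted p = 0.0583). Hoxb4 read 1.74 and 1.68 in GFP+ endothelial cells, against 1.84 and 1.85 in GFP- endothelial cells. That difference of -0.14 ± 0.048 did not pass (adjusted p = 0.0575).

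Over the 4 clusters together, 1 of 10 tested anterior genes fell in GFP+ endothelial cells and 2 rose, 9 of 10 central genes fell, and 6 of 11 posterior genes fell and 1 rose. Of all tested genes, 33.3% fell and 18.1% rose. The 6 posterior genes include Hoxc11, which passed the filter through GFP- endothelial cells alone, so its fall is partly built in. In cluster B the anterior genes Hoxb2, Hoxb3 and Hoxb4 did not pass, while Hoxb5 to Hoxb9 fell by 0.43 to 0.73 on the log2 scale. Hoxb8 had the largest of these falls (-0.73 ± 0.066). Its promoter is printed because it held 3 matches to the motif TTTATNG, in capitals (RefSeq, GRCm38.p6, 5′ to 3′). One other of the 24 Hox promoters listed, for 22 Hox genes, held that motif, as did 9.81% of 32851 promoters in all.
Hoxb8 promoter, chr11:96281655-96281904, plus strand: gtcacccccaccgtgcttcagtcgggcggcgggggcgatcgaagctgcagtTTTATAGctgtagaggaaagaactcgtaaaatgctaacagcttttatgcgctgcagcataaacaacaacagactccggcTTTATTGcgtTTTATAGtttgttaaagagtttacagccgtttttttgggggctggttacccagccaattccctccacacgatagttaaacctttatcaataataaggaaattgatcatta

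The Hoxc11 probe is printed because it covers part of the homeobox, the stretch that Hox genes share most. Capitals mark the codons of WFQNRR, 6 residues within the recognition helix of the homeodomain. The longest run of bases shared by the probes used for any 2 Hox genes was 11 of 60. Probes were compared only with each other, so this does not show whether the Hoxc11 probe matches other Hox transcripts.
Hoxc11 probe, chr15:102787022-102787081 (mm9): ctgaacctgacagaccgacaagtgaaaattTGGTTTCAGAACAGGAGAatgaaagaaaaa
The 2 Hoxb3 probes differed: in endothelial cells the one used gave -0.11 ± 0.111 (adjusted p = 0.449) and the other one -0.60. In cluster cells they gave -0.76 and -0.65. With the mean of both, Hoxb3 was lower in GFP+ endothelial cells (-0.35, adjusted p = 0.0088). Hoxc11 was not well above background in either GFP+ group and was at least 1.95-fold lower in GFP+ than in GFP- endothelial cells. Hoxc11 passed the filter through GFP- endothelial cells alone, so this bound is partly built in.

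Across the 2 GFP comparisons, 13 Hox genes were lower in both, which is 59.1% of the genes lower in cluster cells and 81.2% of those lower in endothelial cells. This is 41.9% of the tested Hox genes, beside 11.0% of all tested genes. The 13 include Hoxc11, which was not well above background in either GFP+ group. It passed the filter through GFP- endothelial cells alone, so its place among them is partly built in. These comparisons share no arrays, but the fit gives them a common estimate of the spread. Hoxa9 was the 1 gene higher in both, and no gene moved in opposite directions with both calls passing. The difference of the differences (cluster minus endothelial) was tested as an interaction: 19 Hox genes had a lower value, 3 a higher one and 9 did not pass, against 15.5% lower and 15.7% higher among all tested genes. The count of lower values fell to between 7 and 13 when 1 array was left out, lowest without the first GFP- cluster array, and 9 of the 22 calls held in all 8 such fits.

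The 5 largest interactions among genes measured in all groups were those of Hoxc9 (-1.19 ± 0.108), Hoxd9 (-1.06 ± 0.124), Hoxa6 (0.94 ± 0.081), Hoxa2 (-0.87 ± 0.192) and Hoxa7 (0.85 ± 0.095). Hoxc9 fell much further in cluster cells than in endothelial cells, where it read -1.25 and -1.26 in GFP+ cells, against -0.96 and -0.77 in GFP- cells. Hoxd9 read -3.01 and -3.21 in GFP+ endothelial cells, against -2.43 and -2.40 in GFP- endothelial cells, a fall of 0.69 on the log2 scale next to one of 1.76 in cluster cells. Hoxa6 and Hoxa7 went the other way, with a fall in endothelial cells and no passing change in cluster cells. Hoxa6 read -3.09 and -3.16 in GFP+ cluster cells, against -3.17 and -3.11 in GFP- cluster cells, and those groups overlapped. The Hoxa2 interaction was lost in 6 of the 8 fits that left out 1 array (highest adjusted p = 0.0715), and those of Hoxa9 and Hoxb4 in 7 and 8 (highest adjusted p = 0.0892 and 0.101).

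Among GFP+ cells, cluster against endothelial, anterior Hox genes were mostly lower, and the genes that were higher all lay in cluster A. Of the 31 tested Hox genes 17 were lower and 5 higher in cluster cells, beside 24.2% and 26.1% of all tested genes (50.4% in all), and the Hox median was -0.31 against 0.03 for all genes. The 5 higher genes were Hoxa6, Hoxa7, Hoxa9, Hoxa10 and Hoxa13. Hoxa6 read -3.09 and -3.16 in GFP+ cluster cells, against -4.65 and -4.63 in GFP+ endothelial cells (1.52 ± 0.058, adjusted p = 4.53e-05), the largest difference of the family in this comparison. Hoxa7 read 1.89 and 1.73 in GFP+ cluster cells, against 0.84 and 0.74 in GFP+ endothelial cells (1.02 ± 0.068). Neither gene had overlapping groups. Over the family, both cluster arrays lay below both endothelial arrays for 20 genes and above them for 5, beside 35.7% and 40.9% of all tested genes.

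Hoxa9 was higher by 0.84 ± 0.054 in GFP+ cluster cells than in GFP+ endothelial cells (adjusted p = 0.000218), and its second probe gave 1.08. Hoxa10 was higher by 0.54 ± 0.062. Hoxa13, known for roles in the umbilical arteries and the digits, was higher by 0.82 ± 0.167, but no group of this pair was well above background on both arrays. The Hoxa13 call was lost with quantile normalization (0.28, adjusted p = 0.306). In the same cluster Hoxa5 was lower (-0.31 ± 0.053, adjusted p = 0.00576) and Hoxa11 did not pass (-0.03). The lower genes also included Hoxc9 (-0.97 ± 0.076), Hoxa2 (-0.86 ± 0.136), Hoxb7 (-0.76 ± 0.053) and Hoxb4 (-0.39 ± 0.048). Hoxa2 read -2.04 and -2.01 in GFP+ cluster cells, against -1.38 and -0.95 in GFP+ endothelial cells, without overlap. By paralogue number, 8 of 10 anterior genes were lower and none higher, 7 of 10 central genes were lower and 2 higher, and 2 of 11 posterior genes were lower and 3 higher. Of all tested genes, 24.2% were lower and 26.1% higher, and the posterior counts lay near these shares. The 3 higher posterior genes include Hoxa13.

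**Figure D3:**
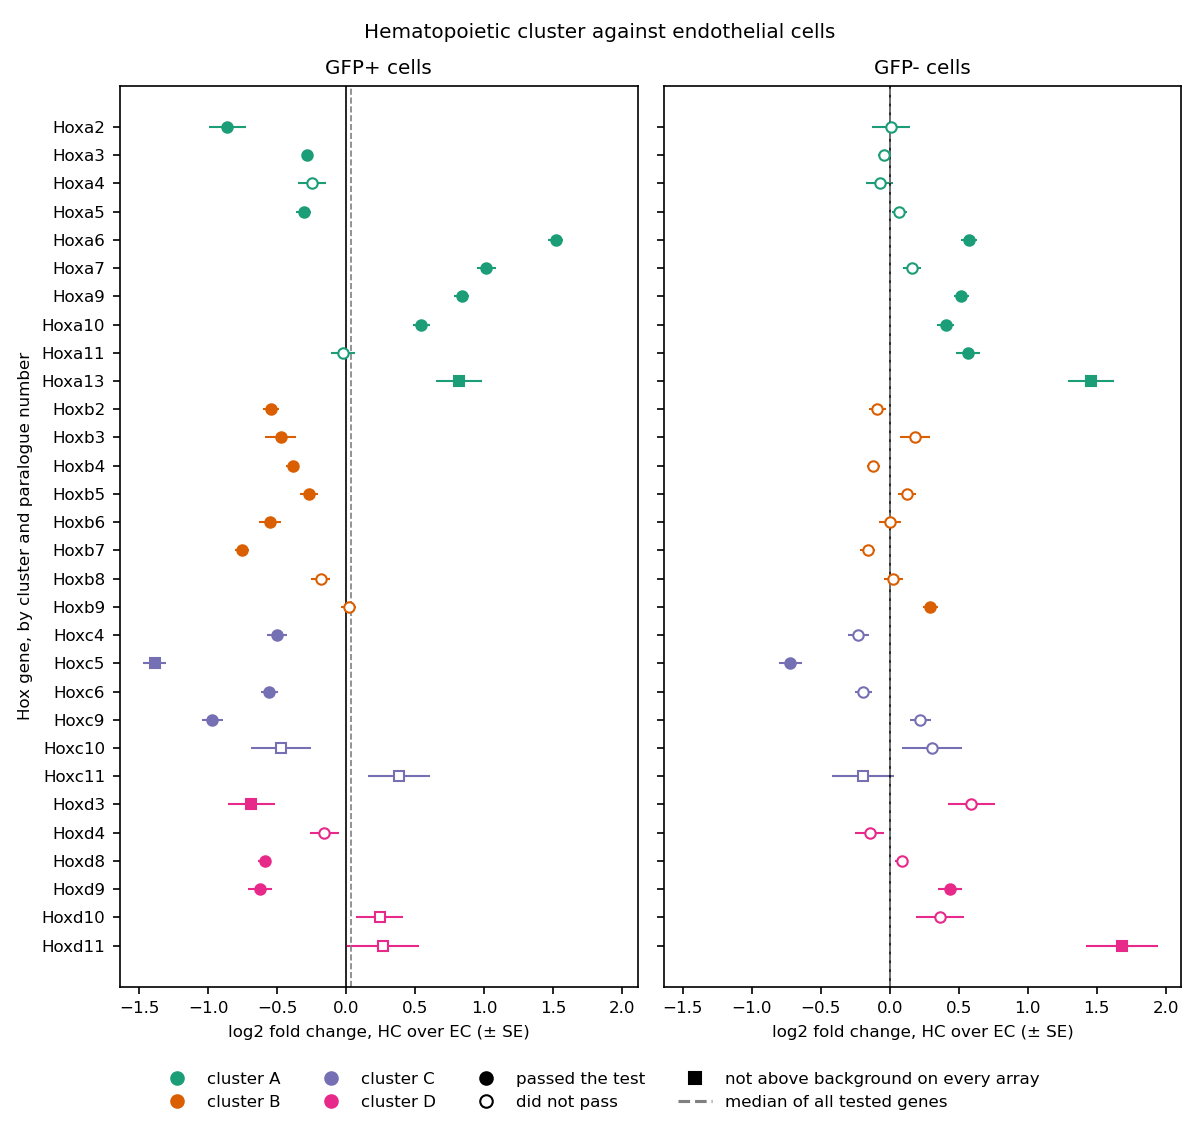
Log2 fold change of 30 of the 31 tested Hox genes, cluster over endothelial cells, with its standard error (horizontal axis), among GFP+ cells (left) and GFP- cells (right). Filled points passed the test, open points did not, squares were not above background on every array of the pair, colours mark the clusters and the dashed line is the median of all tested genes. On the left Hoxa6, Hoxa7, Hoxa9, Hoxa10 and Hoxa13 lie to the right of 0; on the right most points are open.

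Among GFP- cells, cluster against endothelial, 8 of 31 Hox genes were higher in cluster cells and 1 was lower. Of all tested genes 24.3% passed, 11.9% higher and 12.4% lower, with medians of 0.09 for the Hox genes and 0.00 for all genes. Both cluster arrays lay above both endothelial arrays for 15 Hox genes and below them for 9, beside 32.4% and 33.9% of all tested genes. The lower gene was Hoxc5, which read -3.43 and -3.62 in GFP- cluster cells, against -2.73 and -2.88 in GFP- endothelial cells (-0.72 ± 0.084, adjusted p = 0.00466). Of the 8 higher genes, 7 were posterior, among them Hoxa13 and Hoxd11, which passed the filter through GFP- cluster cells alone. Among the 24 genes above background on all 8 arrays, 6 were higher and 0 lower. Hoxa11 read -1.53 and -1.60 in GFP- cluster cells, against -2.16 and -2.10 in GFP- endothelial cells (0.57 ± 0.087). Hoxa6 was higher by 0.58 ± 0.058, Hoxa9 by 0.52 ± 0.054 and Hoxa10 by 0.40 ± 0.062.

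Hoxd9 was higher in GFP- cluster cells by 0.44 ± 0.088 and Hoxb9 by 0.29 ± 0.053, but the Hoxd9 call was lost with quantile normalization (0.34, adjusted p = 0.0785). Hoxa13 was at least 2.38-fold higher in GFP- cluster cells than in GFP- endothelial cells, where it was not well above background. Hoxd11 was above background on both GFP- cluster arrays and was higher by 1.68 ± 0.262 (adjusted p = 0.0105). GFP- cluster cells are the 1 group through which Hoxa13 and Hoxd11 passed the filter, so these differences are partly built in. The number of higher genes depended on single arrays: it was 3 and 4 without the first or the second GFP- cluster array and 5 and 4 without the first or the second GFP- endothelial array. Hoxa6, Hoxa9, Hoxa13 and Hoxc5 kept their calls in all 8 fits. With normexp without the 2 spots, the calls of Hoxa6 (0.20, adjusted p = 0.213), Hoxa13 (0.42, adjusted p = 0.113) and Hoxd9 (0.27, adjusted p = 0.0655) were lost.

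**Figure D4:**
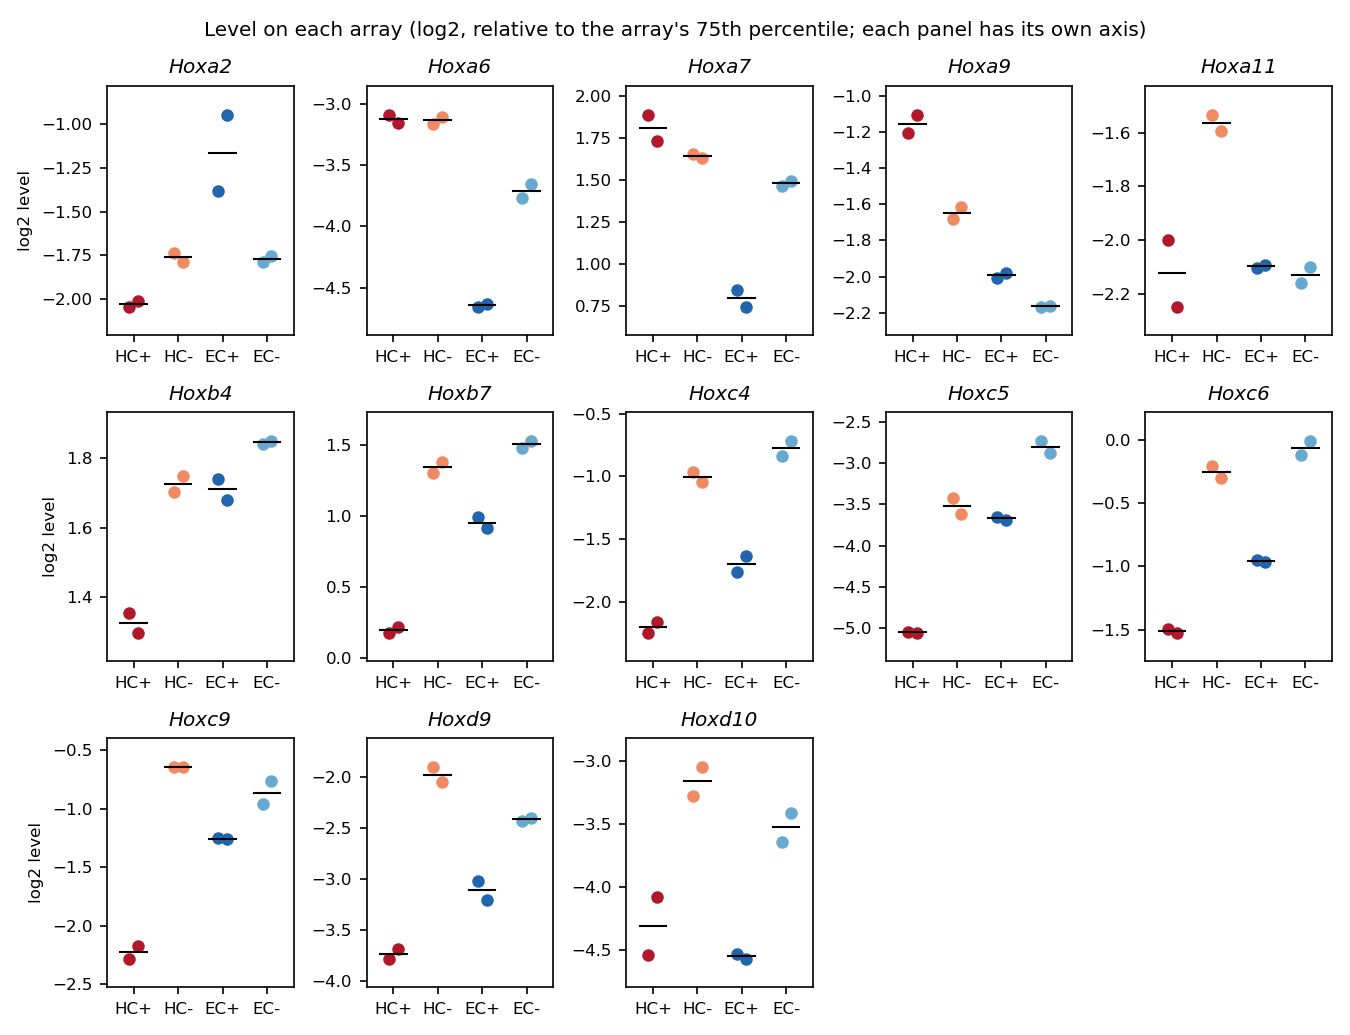
Log2 level on each array (vertical axis, relative to the array's 75th percentile) of Hoxa9, Hoxb4 and the genes with the 5 largest passing changes in each comparison, in GFP+ and GFP- cluster cells (HC+, HC-) and GFP+ and GFP- endothelial cells (EC+, EC-). Points are the 2 arrays of a group and lines their mean, and each panel has its own axis. Hoxa9 is highest in HC+ (-1.21 and -1.10), while Hoxb7, Hoxc9 and Hoxd9 are lowest there.

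Over the 4 groups, GFP+ cluster cells had the lowest mean for 20 of the 31 tested Hox genes, while 32.3% of all tested genes were lowest there. GFP- cluster cells had the highest mean for 15, beside 20.9% of all genes. These 15 include Hoxa13 and Hoxd11, which passed the filter through that group alone, so their place is partly built in. The 3 genes highest in GFP+ cluster cells were Hoxa6, Hoxa7 and Hoxa9. For Hoxa9 the order was GFP+ cluster, GFP- cluster, GFP+ endothelial and GFP- endothelial cells, and each neighbouring pair had separate arrays. For Hoxb4 the order was GFP- endothelial, GFP- cluster, GFP+ endothelial and GFP+ cluster cells, and the arrays of the 2 middle groups overlapped. Hoxa4 and Hoxd4 passed in none of the 5 comparisons, which does not show that they were equal. With quantile normalization Hoxa4 was lower in cluster than in endothelial cells among GFP+ cells (-0.35, adjusted p = 0.0165).

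The TALE cofactors, which Hox proteins bind DNA with, changed in both directions. In cluster cells, GFP+ against GFP-, 1 of 8 tested rose and 3 fell, beside 11.8% and 20.9% of all tested genes. Meis1 read 3.08 and 2.98 in GFP+ cluster cells, against 2.19 and 2.19 in GFP- cluster cells (0.84 ± 0.059, adjusted p = 0.000351). Pknox2 (-0.58), Pbx3 (-0.44) and Meis3 (-0.36) fell. In endothelial cells Meis2 (0.76) and Meis1 (0.19) rose, and Meis3 (-0.52) and Pbx2 (-0.31) fell. Of all tested genes, 18.1% rose and 33.3% fell there. Like Hoxa9, Meis1 was higher in cluster than in endothelial cells among GFP+ cells (1.08 ± 0.059) and among GFP- cells (0.44 ± 0.059). Pbx4 was not tested.

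**Figure D5:**
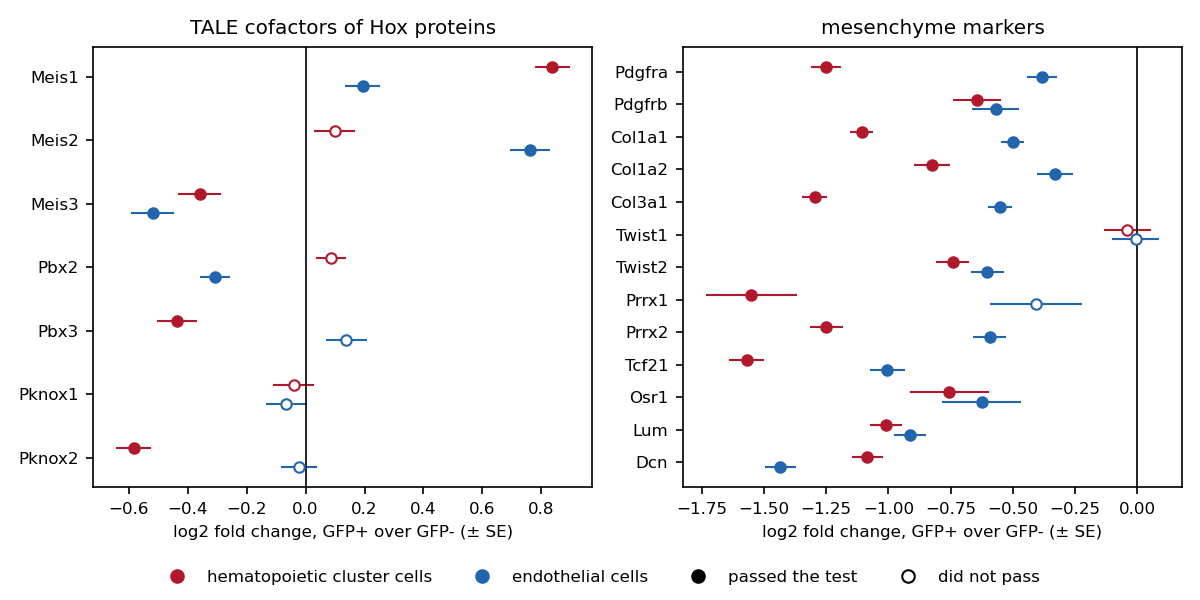
Log2 fold change, GFP+ over GFP- (horizontal axis, with standard errors), of 7 of the 8 tested TALE cofactors (left) and the 13 mesenchyme markers (right), in hematopoietic cluster cells and endothelial cells. Filled points passed the test. Cofactors lie on both sides of 0, while 12 of 13 mesenchyme markers are lower in cluster cells and 11 of 13 in endothelial cells.

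Among known activators and chromatin regulators of the Hox clusters, 19 were tested. In cluster cells 2 rose and 6 fell in GFP+ against GFP-, and in endothelial cells 6 rose and 6 fell, beside 32.7% and 51.5% of all tested genes that passed in either direction. Aldh1a2, which makes retinoic acid, an activator of anterior Hox genes, was lower in GFP+ cells by 1.12 ± 0.102 on the log2 scale in cluster cells and by 0.51 ± 0.102 in endothelial cells. Cyp26a1, which degrades retinoic acid, was higher in GFP+ cells, by 0.72 ± 0.120 in cluster cells and 1.69 ± 0.120 in endothelial cells. The retinoic acid receptor Rarb was lower by 0.59 ± 0.060 in GFP+ cluster cells, and Cbx2, of the Polycomb complex, by 0.40 ± 0.067. Cdx1, Cdx2 and Cdx4, activators of posterior Hox genes, were not tested, as none was well above background on both arrays of a group. The part of the retinoic acid genes and the other regulators in the Hox results was not tested.

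Markers of other cell types changed in both directions, and those of mesenchyme were mostly lower in GFP+ cells. Over all tested genes, 20.9% were lower in GFP+ than in GFP- cluster cells and 33.3% in endothelial cells. Of 13 mesenchyme markers, 12 were lower in GFP+ than in GFP- cluster cells (median -1.09) and 11 in GFP+ than in GFP- endothelial cells (median -0.57). Their summed level, in units of the array's 75th percentile, was 9.05 to 9.20 in GFP+ cluster cells, 18.4 to 18.5 in GFP- cluster cells, 17.0 to 17.7 in GFP+ endothelial cells and 25.5 to 26.1 in GFP- endothelial cells. Prrx1 and Tcf21 were not well above background in GFP+ cluster cells. Between cluster and endothelial cells, 10 of the 13 markers were lower among GFP+ cells and 8 of 13 among GFP- cells. Of all tested genes, 24.2% and 12.4% were lower in these comparisons. Among GFP- cells, 3 of the 20 tested Hox genes of clusters B, C and D were higher in cluster cells and 1 was lower, beside 11.9% and 12.4% of all tested genes. The 3 include Hoxd11, which passed the filter through GFP- cluster cells alone, so its difference is partly built in. The part of the mesenchyme markers in the Hox results was not tested.

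Of 6 erythroid markers all fell in both GFP comparisons (medians -4.08 in cluster cells and -2.79 in endothelial cells), with summed levels of 55.3 to 56.6 in GFP+ and 426 to 449 in GFP- cluster cells. The 3 markers of allantois and umbilical vessels (Tbx4, Hand1 and Pitx1) all fell in GFP+ cluster cells, with sums of 0.55 to 0.57, against 1.32 to 1.36 in GFP- cluster cells. Macrophage markers went the other way, with 5 of 5 higher in GFP+ cells in both classes, and sums of 14.9 to 15.2 in GFP+ and 3.95 to 4.36 in GFP- cluster cells. Of 7 neural markers, Sox2, Pax6, Olig2 and Neurog2 were not well above background in any group, and the 3 tested fell in both GFP comparisons. Beside 20.9% of all tested genes, 2 of 6 nephric and coelomic markers and 1 of 4 somite markers fell in cluster cells. Their part in the Hox results was not tested either.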

How the data were processed

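RNA of 4 sorted groups was measured on 8 single-colour Agilent arrays. The deposited intensity values are spot signals after background correction by the scanner software, Feature Extraction 10.10.1.1, per the file headers. The authors also deposited a normalized table of intensity values, made by a method not given in the sources used here. It is linear, and each column has a median of 198.

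For each array the log2 processed signal was taken and the 75th percentile over non-control probes subtracted. Outlier spots were left out and repeated spots averaged. The brightest probe stood for a gene, and a gene was tested where some group had it well above background on each of its 2 arrays. Probe names came from the array files, updated through RefSeq accessions. The comparisons used limma 3.58.1 (R version 4.3.3; data.table version 1.17.8), in a single fit of 4 group means with 4 residual degrees of freedom, two-sided, adjusted by Benjamini-Hochberg over all 19538 tested genes of a contrast at 0.05. Errors beside differences are standard errors of the fit. The fit was also tested on simulated data.

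The Hox genes, the other lists and the rule for the genes named were chosen with earlier results of these data known. The rule gave array values for Hoxa9, Hoxb4 and the up to 5 largest called changes per contrast among genes measured in both groups, and up to 4 genes of each other list. Hoxb3, Hoxb8, Hoxc11 and the genes with several probes were described after their values were seen.

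Replicate 1 of every group lay on 1 slide and replicate 2 on another. Deviations of same-numbered arrays correlated in all group pairs (r from 0.139 to 0.359), so the numbers pair the arrays by slide. Each group held its own array position, so position and group cannot be told apart. Alternatives were another background correction, quantile normalization, the authors' table, other filters and probe rules, the slide as a block and leaving out each array. Counts are over all tested genes, and 1 Hox gene, 1 cofactor and 1 probe sequence are not reported here individually.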

Additional observations from a re-analysis of the deposited data

Results flagged for a closer look

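The GFP difference differed between cluster and endothelial cells for 22 Hox genes, by limma's interaction test. As cluster minus endothelial difference, on the log2 scale, it was higher for Hoxa6 (0.94), Hoxa7 (0.85) and Hoxa9 (0.32). In cluster A it was lower for genes including Hoxa2 (-0.87), Hoxa3 (-0.24), Hoxa5 (-0.38) and Hoxa11 (-0.59). In cluster B it was lower for Hoxb2 (-0.45), Hoxb3 (-0.66), Hoxb4 (-0.27), Hoxb5 (-0.39), Hoxb6 (-0.55), Hoxb7 (-0.60) and Hoxb9 (-0.27). The second Hoxb3 probe gave similar GFP differences in cluster cells (-0.65) and endothelial cells (-0.60), so the Hoxb3 value depends on the probe. In cluster C it was lower for Hoxc5 (-0.66), Hoxc6 (-0.37) and Hoxc9 (-1.19). In cluster D it was lower for Hoxd3 (-1.28), Hoxd8 (-0.68), Hoxd9 (-1.06) and Hoxd11 (-1.41). Hoxc5, Hoxd3 and Hoxd11 were not well above background in every group, so the size of their values depends on dim spots. When 1 array was left out, 9 of the 22 calls held in all 8 fits. Those of Hoxa3, Hoxb4 and Hoxb9 held in 0, that of Hoxa9 in 1, and those of Hoxa2, Hoxb3, Hoxb5 and Hoxc6 in 2. The Hoxd11 call held in 2 of the 8 fits that left out an array, and with the mean of its 2 probes the value was -0.16 (adjusted p = 0.776). Its second probe, above background on 1 array, gave -0.15 for GFP+ against GFP- cluster cells and -1.24 for endothelial cells. With 2 arrays per group, no group was large enough to look for a single array far from the others.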

How the results depend on the processing

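Quantile normalization and the authors' normalized table gave nearly the same Hox counts, 22 lower and 1 higher for GFP+ against GFP- cluster cells and 16 and 2 for endothelial cells. With quantile normalization, 17.3% of all tested genes were lower and 13.7% higher in cluster cells, and 22.4% and 21% in endothelial cells. The replicate numbers pair arrays by slide, and with the replicate block 22 were lower and 1 higher in cluster cells and 17 and 3 in endothelial cells, and no call was lost in the 5 contrasts. Of all tested genes, 22.6% were then lower and 12.6% higher in cluster cells, and 37.7% and 19.3% in endothelial cells. The planned normexp background correction lost nearly all calls, with 3 lower and 0 higher in cluster cells and 0 in each direction of the other 4 contrasts. The loss ran over all genes, as 130 of 19538 tested genes were called in cluster cells and 101 in endothelial cells. The second GFP- endothelial array holds 2 spots with a mean signal far below their background. With these left out, an alternative chosen after seeing the data, 20 and 16 Hox genes were lower in the GFP contrasts, and 10 in the interaction. Of all tested genes, 14.2% and 25.7% were lower in the GFP contrasts and 8.58% in the interaction. Requiring at least 2-fold left 12 lower and 0 higher in cluster cells, 2 and 0 in endothelial cells, 1 and 2 between classes among GFP+ cells, 0 and 2 among GFP- cells, and 4 and 0 in the interaction. Of all tested genes, this left 2.39% lower and 2.99% higher in cluster cells and 4.7% and 2.45% in endothelial cells. Between classes it left 2.18% and 7.69% among GFP+ cells and 0.322% and 1.82% among GFP- cells, with 1.64% and 4.03% in the interaction. With trended and robust moderation 2 were higher in cluster cells and 4 lower between classes among GFP- cells. With the mean of a gene's probes, or with only the compared groups in the fit, 1 was higher in endothelial cells. Without a filter on dim probes 5 were higher between classes among GFP- cells and 7 lower in the interaction. Leaving out 1 array gave 19 to 23 lower in cluster cells, 15 to 17 lower and 1 to 3 higher in endothelial cells, 14 to 17 lower and 5 to 6 higher between classes among GFP+ cells, 3 to 9 higher among GFP- cells, and 7 to 13 lower and 2 to 3 higher in the interaction. Signs turned under the planned normexp correction for Hoxa9 in endothelial cells (-0.416), for Hoxa6 (-0.610), Hoxa9 (-0.149), Hoxa10 (-0.292), Hoxa11 (-0.0490), Hoxa13 (-0.731), Hoxd9 (-0.311) and Hoxd11 (-0.392) between classes among GFP- cells, and for Hoxa11 (0.0194), Hoxc5 (0.551), Hoxd3 (0.618) and Hoxd11 (0.383) in the interaction. The number of arrays and the signal over background limit what can be said of dim genes.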

Other observations

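Genes that lie beside the Hox clusters on the chromosome were tested as a list of 18. In cluster cells, GFP+ against GFP-, 2 rose and 5 fell, and in endothelial cells 5 rose and 8 fell, beside 32.7% and 51.5% of all tested genes that passed in either direction. Beside cluster A, Evx1, a homeobox gene next to Hoxa13, was not well above background in GFP+ cluster cells and was at least 1.05-fold lower there than in GFP- cluster cells (limma, adjusted p = 2.95e-05), while Snx10 rose by 0.41 on the log2 scale. Cbx1, near cluster B, fell by 0.41 in cluster cells. Mtx2, beside cluster D, fell by 0.38 on the log2 scale in cluster cells and by 0.46 in endothelial cells, and Lnpk by 0.47 in endothelial cells. Cbx5, near cluster C, fell by 0.65 in GFP+ endothelial cells and read -0.04 in cluster cells, where it did not pass.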
